A study of Schmidtea mediterranea with 2 samples.

Results

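The 20 genes described here were listed by the study as stem cell marker genes of the planarian Schmidtea mediterranea, besides piwi-1. The list has 22 stem cell rows marked as differentially expressed. Of these, 2 were left out, namely piwi-1 itself and SMED30016196, which is listed for the intestine as well. The 20 genes are among 22150 genes with at least 1 unique molecular identifier (UMI, a tag that counts each captured mRNA molecule once) in the table used here. The list gives identifiers only, so the genes are named by their SMED30 identifiers, without a function or a genome position.

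Planarians were frozen, sectioned onto 1 Slide-seqV2 puck and made into 1 library, which was sequenced in 2 runs. Slide-seqV2 lays a tissue section on a dense layer of beads whose barcodes and positions are known, so that each mRNA is counted on the bead that captured it. The 4 count tables are the Syrah-processed and the original version of the first run and of the data with the second run, Syrah being a correction of errors in the barcode reads. The labels name no treatment, strain or age, and with 1 library there are no replicates.

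Adult planarians keep a large pool of dividing stem cells, the neoblasts, which replace all other cell types and drive regeneration. Neoblasts lie in the tissue between the body wall and the branched gut, and piwi-1, which encodes an Argonaute-family protein, is the usual marker for them. The gene mat2a was the study's marker for intestinal cells, and 13 further genes listed for the intestine serve here as the set to compare with. A bead is a small area that can take up mRNA from several cells.

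Values are from the Syrah-processed table with both runs, over beads with at least 50 UMIs, unless stated otherwise. These 8789 beads held 3166333 UMIs, with a median of 196 per bead. Over tissue lay 7046 of the beads, with a median of 223.5 UMIs, and the other 1743 had a median of 106. All intervals are 95% intervals that cover counting error only, and no p-value was computed, since beads of 1 library are not replicates.

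The 20 stem cell marker genes were abundant as a group but very unequal. Together they took 197237 UMIs, or 6.23% of all (exact binomial interval 6.20% to 6.26%), against 53135 UMIs and 1.68% (1.66% to 1.69%) for the 13 intestine genes. The median was 4553.5 UMIs per stem cell marker gene and 1369 per intestine gene. At least 1000 UMIs were held by 16 of the 20 and by 7 of the 13, compared with 333 of the 2941 genes that had 100 UMIs or more. All 20 passed that minimum of 100.

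SMED30029763 (h1SMcG0008035 in the schMedS3 gene set) was the most abundant of the 20, with 49716 UMIs, and the 5th most abundant of all genes. Its level was 1570 UMIs per 100000 (exact Poisson interval 1556 to 1584). SMED30013735 (h1SMcG0010823) had 38292 UMIs, or 1209 per 100000 (1197 to 1222), and SMED30035193 (h1SMcG0007496) had 33748, or 1066 per 100000 (1055 to 1077). These 3 genes held 61.7% of the UMIs of the whole list. The next in order, SMED30029899, had 11731 UMIs, and no intervals overlapped among the 4. At the other end were SMED30033302 with 119 UMIs (3.76 per 100000, 3.11 to 4.50), SMED30034055 with 161 (5.08, 4.33 to 5.93) and SMED30031463 with 406 (12.8, 11.6 to 14.1). The canonical markers themselves were far scarcer than most of the list, with 1805 UMIs of piwi-1 on 1137 beads and 1032 of mat2a on 801 beads. In abundance piwi-1, at 57.0 per 100000, fell between SMED30011041 at 68.9 and SMED30001701 at 53.4. The number of the 20 genes that a bead showed followed its depth. The median was 3 on beads with under 100 UMIs, 5 up to 200, 7 up to 500 and 12 on beads with 500 or more, where no bead showed fewer than 5.

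**Figure D1:**
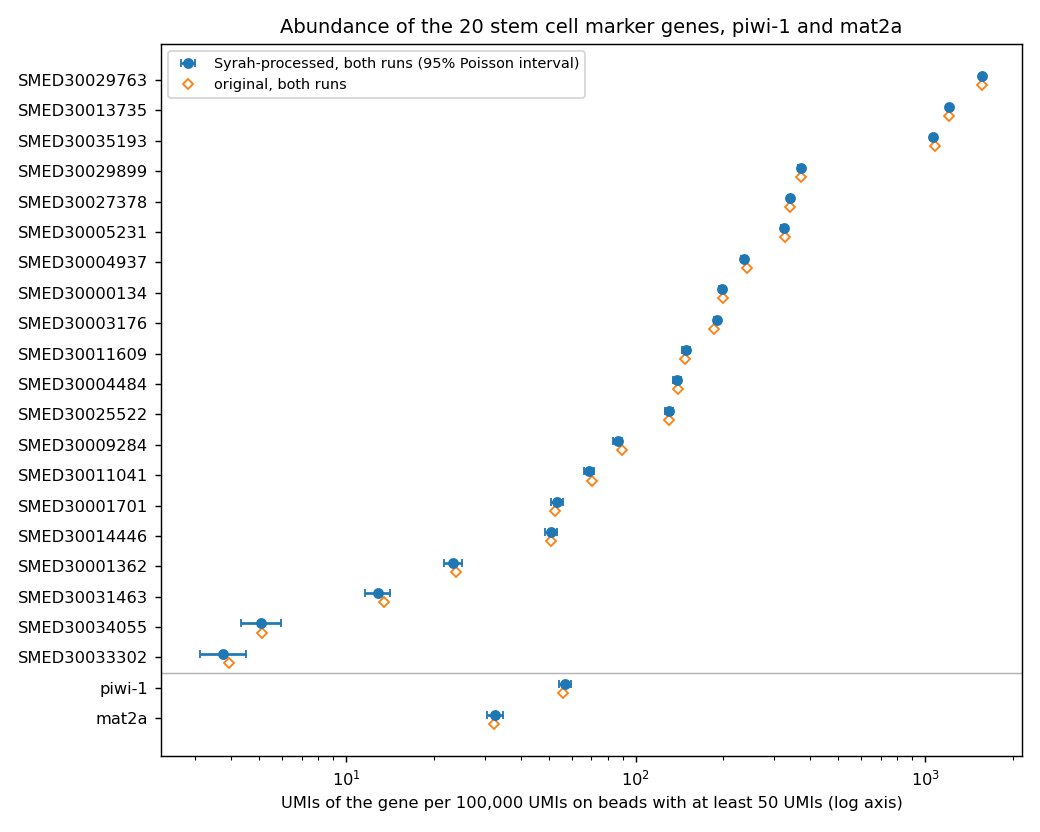
Level of each of the 20 stem cell marker genes, in order of abundance, with piwi-1 and mat2a below the line, in UMIs per 100000 on a log axis. Filled circles are the Syrah-processed and open diamonds the original table with both runs, and bars are 95% Poisson intervals of the Syrah-processed values. The 3 most abundant genes lie above 1000 per 100000, and both versions give nearly the same level for each gene.

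Levels differed little between the 4 tables, which share reads. SMED30029763 stood at 1624 and 1570 per 100000 in the Syrah-processed tables of the first run and of both runs, against 1622 and 1568 in the original tables. For SMED30013735 the levels were 1233 and 1209 in the Syrah-processed tables, against 1227 and 1203 in the original ones. Syrah processing raised the raw UMIs of each of the 20, by 1.19 to 1.30 times with both runs. The median gain was 1.246 times for the 20 and 1.245 times for all 2551 genes that reached 100 UMIs before Syrah, where 99.6% had more UMIs than before. The list gained as much as genes in general.

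Where the genes lay on the puck was measured with a clumping ratio. It is the mean product of a gene's shares of UMIs on 2 beads 10 to 50 coordinate units apart, divided by the square of its mean share, so a gene spread in proportion to UMIs has a ratio of 1. For the 20 stem cell marker genes the ratio was low. Their median was 1.09, compared with 1.65 for the 13 intestine genes and 1.13 for all 2941 genes. A ratio of at least 1.5 was reached by 1 of the 20 and by 10 of the 13, where 29.8% of all genes reached it. Among genes with at least 1000 UMIs, where counting noise is small, the counts were 0 of 16 and 6 of 7, where 28.5% of genes reached it. The clumping of most listed genes was thus at or below that of genes in general. It was still above 1 for many, since 11 of the 20 exceeded 1 by more than 2 counting SDs, where 24.1% of all genes did. All 11 were among the 16 listed genes with at least 1000 UMIs, where 62.8% of genes did. The counting SD is the spread of the ratio expected if the gene's UMIs fell on beads at random in proportion to their depth.

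The single gene past 1.5 was the scarcest, SMED30033302, at 1.83 with a counting SD of 0.91. It rests on 119 UMIs and is within 1 counting SD of 1. The ratio moved widely with the processing, from 0.7504 at a minimum of 10 UMIs per bead to 3.14 at a minimum of 100 and 3.86 for neighbours 10 to 30 units apart. Next came SMED30029763 at 1.43, whose counting SD was 0.0077, and SMED30034055 at 1.34, with a counting SD of 0.69. The lowest ratios were those of SMED30031463 at 0.77 (counting SD 0.31), SMED30000134 at 0.98 (0.027) and SMED30025522 at 1.01 (0.035). SMED30013735, nearly as abundant as SMED30029763, had 1.03 (0.0090). So SMED30029763 was the only listed gene with at least 1000 UMIs above 1.21, which was the ratio of SMED30004484. Of the 333 genes of that abundance, 107 had a higher ratio than SMED30029763, and piwi-1 had 1.43 (counting SD 0.070).

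**Figure D2:**
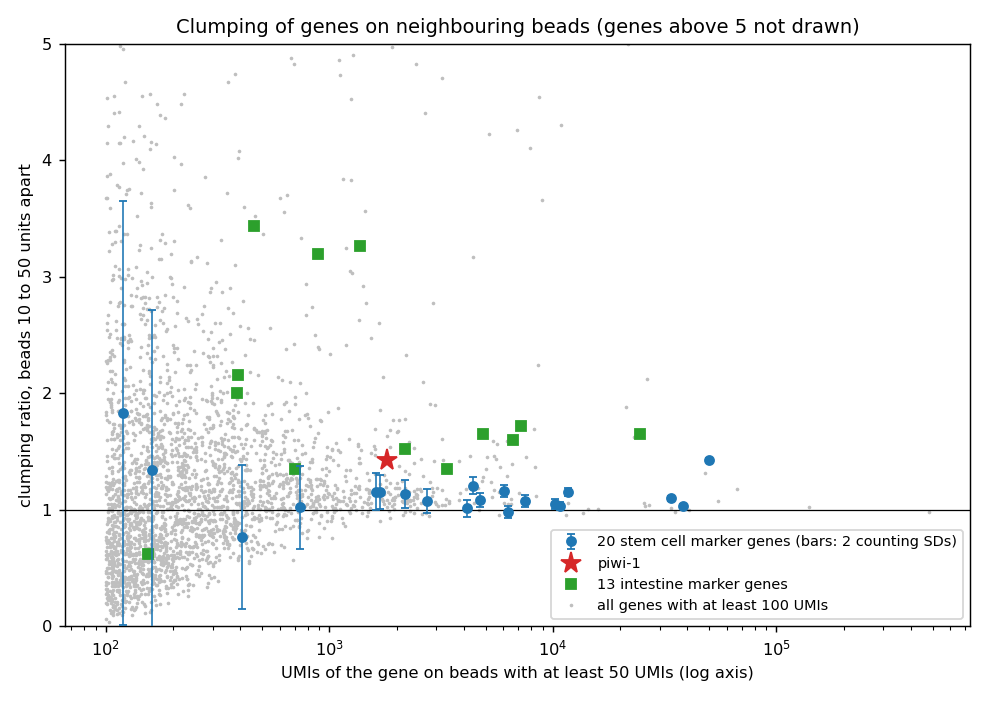
Clumping ratio of each gene (beads 10 to 50 coordinate units apart) against its UMIs on a log axis. Blue points are the 20 stem cell marker genes with bars of 2 counting SDs, green squares the 13 intestine marker genes, the red star piwi-1 and grey points all genes with at least 100 UMIs. Most stem cell marker genes lie close to 1, SMED30029763 at the far right at 1.43, and most intestine genes above 1.5.

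The same contrast between the 2 most abundant genes was seen on single beads. On the 1947 beads with at least 500 UMIs, SMED30029763 made up a median of 1.08% of the UMIs of a bead, with 0.159% at the 5th and 4.81% at the 95th percentile. Its range between these percentiles was 30.2-fold. Its maximum was 267 of 2300 UMIs, or 11.6% of a bead. SMED30013735 had a median of 1.22%, with 0.502% and 2.08% at the same percentiles, a 4.15-fold range, and SMED30035193 a 5.55-fold range. On the map, beads rich in SMED30029763 formed streaks and patches inside the tissue pieces, while SMED30013735 coloured the same pieces evenly.

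**Figure D3:**
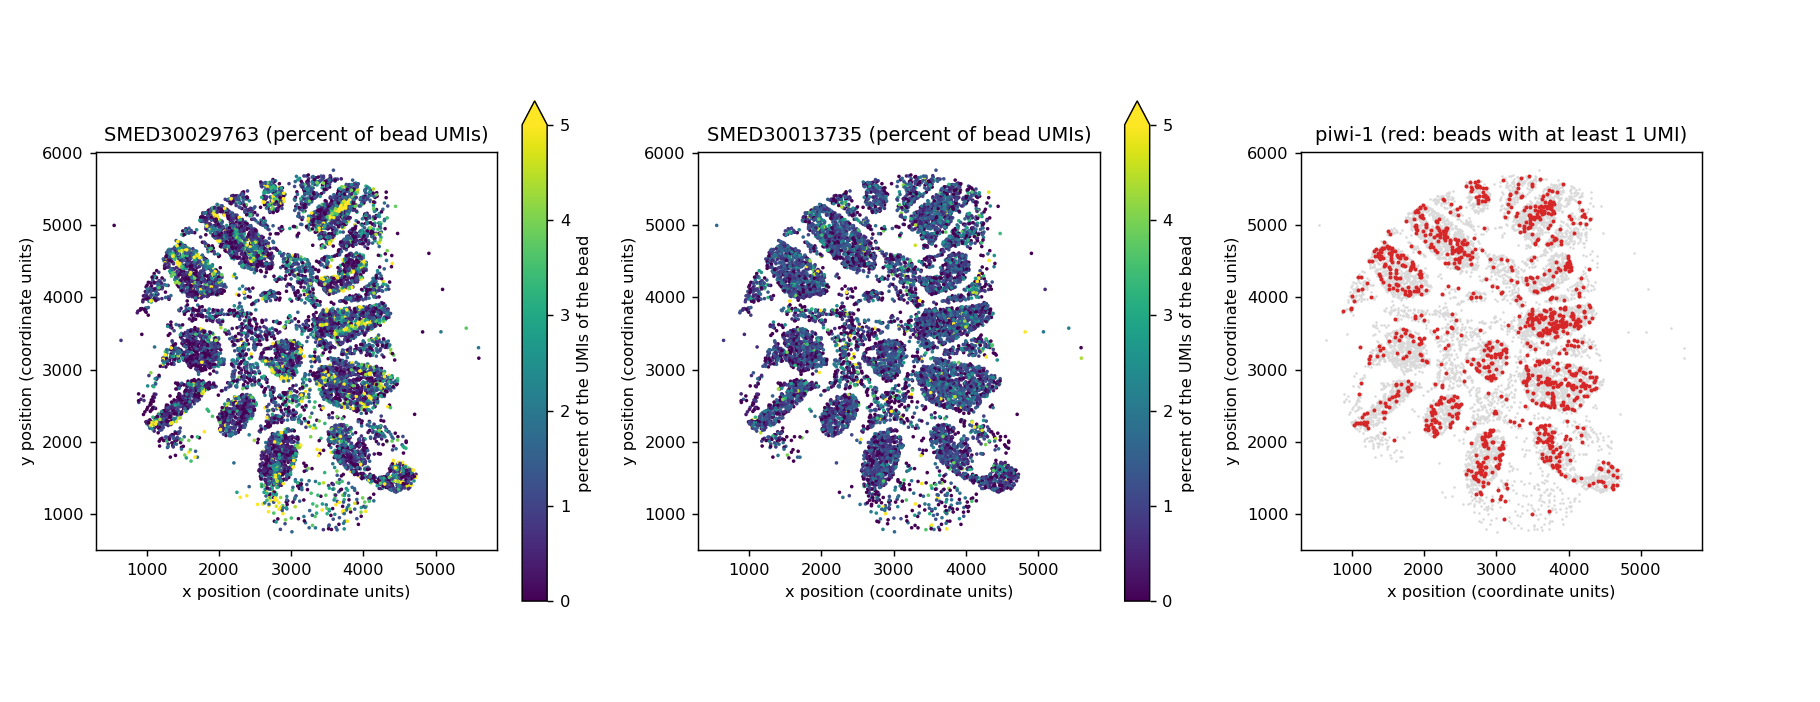
Positions of the 8789 beads on the puck, in coordinate units. In the left and middle panels colour gives the percent of the UMIs of each bead that came from SMED30029763 and from SMED30013735, cut at 5%. In the right panel the 1137 beads with a piwi-1 UMI are red. SMED30029763 is concentrated in streaks and patches and SMED30013735 is even, and beads outside the pieces have fewer UMIs and so noisier percentages.

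The clumping of SMED30029763 was short in range. Its neighbour ratio was 1.61 for beads 10 to 30 units apart, 1.30 at 30 to 60, 1.08 at 60 to 120, 1.04 at 120 to 240 and 1.002 at 240 to 480. That of piwi-1 was 1.76, 1.34, 1.18, 0.98 and 1.07 over the same distances. With SMED30029763 on a bead and piwi-1 on its neighbour, the ratio was 1.57 at 10 to 30 units and 1.31 at 30 to 60, nearly the values of each gene with itself. With mat2a on the neighbour it was 0.87 at 10 to 30 units, 0.98 at 30 to 60, 1.12 at 60 to 120 and 1.15 at 120 to 240, so it was lowest between the nearest beads. The other 19 stem cell marker genes, summed, were close to flat, at 1.05 for 10 to 30 units and 1.02 for 240 to 480. The summed intestine genes had 1.62 at 10 to 30 units and still 1.18 at 120 to 240, where SMED30029763 was at 1.04. With piwi-1 on the neighbour, the other 19 genes, summed, had 1.04 at 10 to 30 units, and with mat2a 1.14. At 30 to 60 units these values were 1.03 and 1.15. Summed, the other 19 genes did not share the pattern of SMED30029763 with the 2 markers, but single genes went both ways. At 10 to 30 units, SMED30014446 had 1.21 with piwi-1 and 0.74 with mat2a on the neighbour. SMED30029899 had 0.90 with piwi-1 and 1.32 with mat2a. The summed intestine genes had 0.72 with piwi-1 and 1.44 with mat2a at 10 to 30 units.

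**Figure D4:**
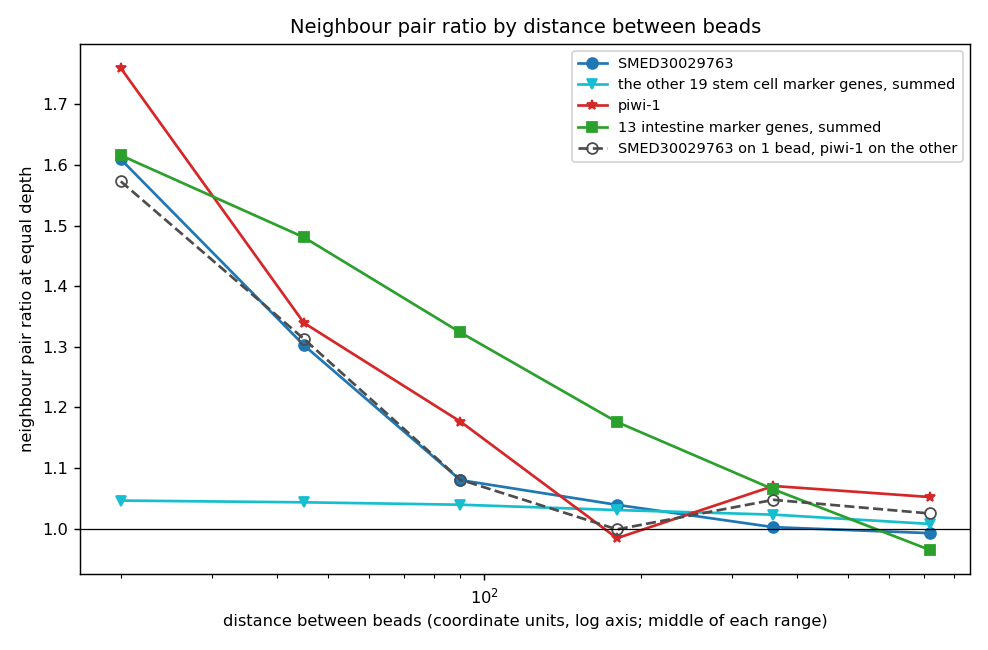
Neighbour pair ratio at equal depth against the distance between beads (coordinate units, log axis, middle of each range). The lines are SMED30029763, the other 19 stem cell marker genes summed, piwi-1, the 13 intestine marker genes summed, and SMED30029763 paired with piwi-1 (dashed). SMED30029763 and piwi-1 both come down to about 1 beyond 60 to 120 units, and the other 19 genes lie near 1 throughout.

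The listed genes were also set beside piwi-1, which is no check of the labelled cell type. The study refers to the list as known markers, taken from a single-cell atlas of the planarian, and the list marks its rows as differentially expressed. The study also compared beads with and without piwi-1. Whether that contrast had a part in choosing the rows is not clear from the list, so the values with piwi-1 are a description from which nothing is read. Beads with piwi-1 were deeper, at a median of 536 UMIs for 1137 beads, against 168 UMIs for the 7652 beads without it. The comparison was therefore made on shares of UMIs. The share on piwi-1-positive over piwi-1-negative beads was above 1 with its interval for 16 of the 20, where 18% of all genes were, and below 1 for 1, where 15.1% were. Intervals are narrower for abundant genes, and the median was 4553.5 UMIs for the 20 against 211 for all genes. These shares of all genes are thus not matched in abundance. The ratio was at least 1.5 for 5, where 8.67% of all genes reached it. These were SMED30001362 at 1.99 (exact conditional Poisson interval 1.72 to 2.31), SMED30031463 at 1.92 (1.57 to 2.34), SMED30029763 at 1.91 (1.87 to 1.94), SMED30033302 at 1.79 (1.22 to 2.62) and SMED30014446 at 1.68 (1.52 to 1.86). SMED30029899 had the only interval below 1, with a ratio of 0.914 (0.877 to 0.952). SMED30011041, SMED30003176 and SMED30011609 had intervals that included 1. The median was 1.18 over the 20, against 0.725 over the intestine genes and 1.01 over all genes.

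A second measure gave each bead the same weight, whatever its depth. The same-bead ratio is the rate at which 2 UMIs drawn from a bead are of the 2 genes, divided by the product of their mean shares. With piwi-1 its median was 1.19 for the 20, compared with 0.79 for the intestine genes and 0.87 for all genes. Among genes with at least 1000 UMIs the median was 1.19 for the 16 listed, 0.71 for 7 intestine genes and 0.96 for all 333. At least 1.5 was reached by 3 of the 20, where 14.7% of all genes reached it. The 3 were SMED30029763 at 1.81 (counting SD 0.032), SMED30025522 at 1.55 (0.11) and SMED30011041 at 1.501 (0.16). All 3 had at least 1000 UMIs, where 5.41% of genes passed 1.5. Of the 5 genes with a ratio of shares of at least 1.5, only SMED30029763 reached 1.5 here. The rest were SMED30033302 at 1.29 (counting SD 0.67), SMED30014446 at 1.28 (0.18), SMED30001362 at 1.28 (0.29) and SMED30031463 at 1.08 (0.38). Each of these was within 2 counting SDs of 1. Above 1 by more than 2 counting SDs were 7 of the 20, where 8.26% of all genes were. All 7 were among the 16 listed genes with at least 1000 UMIs, where 12.9% of genes were. Of 332 other genes of that abundance, 5 had a higher ratio with piwi-1 than SMED30029763. In the Syrah-processed table of the first run, 1 of the 20 reached 1.5 in place of 3. The value of SMED30011041 changed side with the table, at 0.934 in the Syrah-processed table of the first run and 0.919 in the original table with both runs and duplicated barcodes summed. Its ratio of shares, 1.05, had an interval of 0.958 to 1.15.

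With mat2a the 20 genes showed no common direction. The ratio of shares, mat2a-positive over mat2a-negative beads, had a median of 0.99, against 1.56 for the intestine genes. Its interval was above 1 for 7 of the 20, where 17.2% of all genes were, and below 1 for 2, where 13.5% were. For the intestine genes it was above 1 for 13 of 13. Whether the study's contrast of beads with and without mat2a had a part in choosing those 13 genes is not clear. Their values with mat2a are therefore a description from which nothing is read. The shares of all genes are over mostly scarcer genes, whose intervals are wider. SMED30029763 was the lowest of the 20 at 0.727 (0.709 to 0.745), followed among those with an interval below 1 by SMED30025522 at 0.843 (0.777 to 0.915). The abundant SMED30035193 lay on the other side at 1.21 (1.18 to 1.24), as did SMED30005231 at 1.197 (1.142 to 1.253), SMED30029899 at 1.155 (1.105 to 1.206) and SMED30013735 at 1.074 (1.047 to 1.1004). The same-bead ratio with mat2a had a median of 1.08 and was above 1 for 12 of the 20. Its median was 1.35 for the intestine genes and 0.83 for all genes. Of the 20, 2 were above 1 by more than 2 counting SDs and 2 were below 1 by as much. A same-bead ratio of at least 1.5 with mat2a was found for 1 of the 20, the scarce SMED30034055, at 1.69 with a counting SD of 0.79, where 14.5% of all genes reached it. Of all 8789 beads, 169 held both piwi-1 and mat2a.

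**Figure D5:**
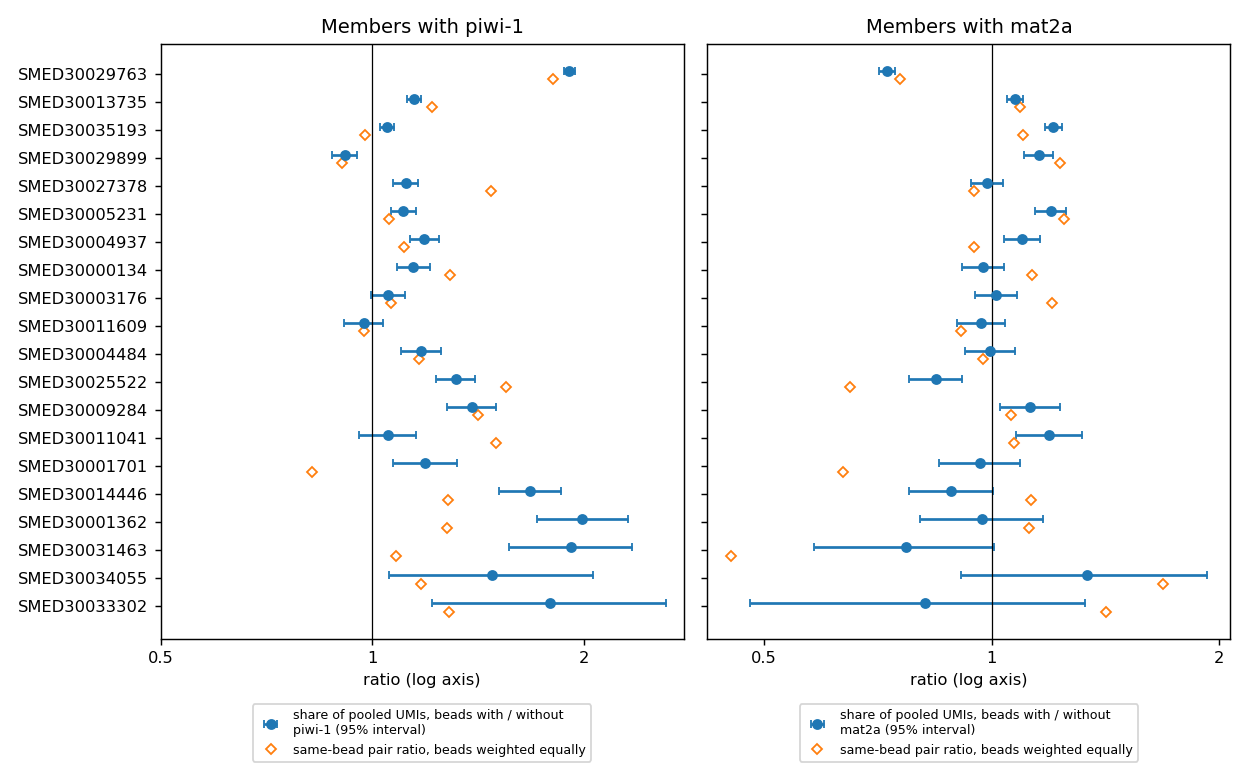
Ratios of each of the 20 stem cell marker genes with piwi-1 (left) and mat2a (right), on log axes. Filled circles are the share of pooled UMIs on marker-positive over marker-negative beads with 95% intervals, and open diamonds the same-bead ratio with beads weighted equally. SMED30029763, at the top, lies near 1.9 with piwi-1 and 0.73 with mat2a, and most others lie within 0.9 to 1.4 with piwi-1.

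The 20 genes were only loosely tied to each other. Over their 190 pairs the same-bead ratio had a median of 1.05 and ranged from 0.31 to 6.67, with 130 pairs above 1. Among the 120 pairs of genes with at least 1000 UMIs, 11 pairs (9.17%) had a ratio of at least 1.2, where 14.8% of all 55278 pairs of such genes did. Above 1 by more than 2 counting SDs were 41 of the 120 (34.2%), where 11.3% of all such pairs were, so small excesses were frequent and larger ones were not. The counting SD is smaller for abundant genes, and the list holds many of them. The 21 pairs of intestine genes of this abundance had a median of 1.41, and 19 of them reached 1.2. Pairs of a stem cell marker gene with an intestine gene had a median of 0.94 over 260 pairs. Pearson correlations after thinning each bead to 50 UMIs had a median of 0.0020 over the 190 pairs and a maximum of 0.044, between SMED30029763 and SMED30014446, and correlations this weak in sparse counts are no finding. The points of each correlation share the library and the bead depth. With the pair's genes on neighbouring beads, the median ratio was 1.02, against 1.38 for the intestine pairs.

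The 3 highest same-bead ratios belonged to pairs with a scarce gene. SMED30033302 with SMED30001362 had 6.67 (counting SD 1.13) on 30 beads with both, where 20.6 would be expected if both genes were spread in proportion to bead depth. This value rests on how beads are weighted, since it was 1.80 with beads weighted by their UMIs. SMED30001362 with SMED30034055 had 2.02 (counting SD 0.98) on 35 beads with both, where 27.6 would be expected. SMED30033302 with SMED30001701 had 1.98 (counting SD 0.69) on 31 beads with both, fewer than the 38.8 expected. With beads weighted by UMIs the ratios of these pairs were 1.65 and 1.13. Among the pairs with more beads, SMED30029763 had the most partners. It exceeded 1 by more than 2 counting SDs with 15 of its 19 partners, compared with 11 for SMED30013735. Its highest ratios were with SMED30031463 at 1.68 (counting SD 0.074), SMED30014446 at 1.47 (0.035) and SMED30001362 at 1.41 (0.055). These 3 partners also had share ratios above 1.5 on piwi-1-positive beads, a description from which nothing is read. Their same-bead ratios with piwi-1 were within 2 counting SDs of 1. With the abundant SMED30035193 the ratio of SMED30029763 was 0.985 (counting SD 0.0078), and with SMED30029899 it was 0.948 (0.012). With SMED30013735 it was 1.09 (0.0072), so its ratios with the next 3 genes in abundance lay on both sides of 1.

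The tissue on the puck formed 12 connected pieces of at least 200 beads, with 263 to 923 beads. They are numbered here from the most beads to the fewest. These pieces held 6178 of the 7046 beads over tissue, and the rest lay in smaller pieces that were left out. The labels do not say which animal or body region each piece comes from. The summed level of the 20 genes was 5349 to 7123 UMIs per 100000 over the pieces, a 1.33-fold range, against a 2.23-fold range for the intestine genes, from 979 to 2181. The lowest and the highest piece had separate intervals for 16 of the 20, where 50.5% of all genes had. The 16 were those with at least 1000 UMIs, where 90.7% of genes had, so differences between pieces were common to abundant genes. SMED30029763 was lowest in piece 11 at 1039 per 100000 (993 to 1086) and highest in piece 6 at 2022 (1963 to 2083), with a median of 1626 and 1974 in piece 3. SMED30013735 kept within 1052 and 1346, a 1.28-fold range that was the narrowest of the 20. SMED30011041 varied most among the listed genes with at least 1000 UMIs, at 3.46-fold. It had 135 per 100000 (118 to 154) in piece 4 and 104 (85.3 to 125) in piece 12, compared with a median of 59.1 and 39.0 (30.5 to 49.1) in piece 11. With the expectation taken within each piece, the median clumping ratio was 1.05 for the 20 and 1.498 for the intestine genes. For SMED30029763 it was 1.41, nearly as high as over the whole puck.

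The summed level of the 20 genes changed little with depth in the tissue, measured as distance to the nearest off-tissue barcode, while single genes differed more. Beads farther in also held more UMIs, with a median of 321 at 90 units or more, against 169 within 30 units of the edge. The share of the 20 genes on beads at least 90 units inside was 1.07 times that on beads within 30 units of the edge (1.06 to 1.09). Of the 20, 6 had an interval above 1, where 10.2% of all genes did, and 1 had an interval below 1, where 6.63% did. Those shares of all genes are over mostly scarcer genes, whose intervals are wider. The 6 included the abundant SMED30035193 at 1.23 (1.18 to 1.27), SMED30005231 at 1.22 (1.14 to 1.30) and SMED30013735 at 1.09 (1.06 to 1.13), and the gene below 1 was SMED30029763 at 0.966 (0.939 to 0.994). For piwi-1 the ratio was 0.881 (0.762 to 1.02), and for 9 of the 13 intestine genes the interval was above 1. SMED30029763 stood at 1682 per 100000 within 30 units of the edge, 1542 at 30 to 60, 1490 at 60 to 90 and 1625 farther in, so it was lowest at mid depth. When a barcode was called over tissue only at 40% of occupied neighbours in place of 25%, the ratio of the summed genes was 0.837 (0.664 to 1.04), so its direction depends on where the edge is drawn.

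The 20 genes were also counted on beads outside the tissue, which can capture free RNA. Their summed share there was 0.920 times that over tissue (0.906 to 0.933). The ratio had an interval below 1 for 7 of the 20, where 10.7% of all genes had, and above 1 for 1, where 6.56% had. Here too the shares of all genes are over mostly scarcer genes, whose intervals are wider. The gene above 1 was SMED30011041, at 1.18 (1.04 to 1.34). SMED30029763 had 1514 per 100000 off tissue and 1577 over tissue, and SMED30013735 had 1089 off tissue and 1225 over tissue. Per UMI, these 2 genes were thus counted nearly as often outside the tissue as over it. The part of free RNA in the even spread of the list was not tested.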

How the data were processed

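The authors counted UMIs of each gene on each barcode with the WARP Slide-seqV2 pipeline, from original reads or after Syrah, and deposited them as whole-number counts without normalization. The methods name schMedS3 as the reference, while the tables use SMED30 identifiers. Barcode positions were deposited in an unstated unit. Depth and the precision it gives are in the report.

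The tables were analysed in python 3.11.15 (scipy 1.17.1, numpy 2.4.6) and drawn with matplotlib 3.10.9. Shares have exact binomial (Clopper-Pearson), levels exact Poisson and ratios exact conditional Poisson intervals. Same-bead ratios are the exact expectation over thinning each bead to 50 UMIs. A barcode counted as over tissue if, among the 50 barcodes nearest to it, 25% or more had 10 UMIs or more, and pieces were over-tissue barcodes linked within 25 units, with at least 200 beads. No pseudocount was used. All 4 tables were used, with 0 columns left unmapped. The measures were tested on simulated data.

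The members and gene lists were chosen with earlier results of these data known. Genes given in full are the 3 most and 3 least abundant, the 3 highest and 3 lowest in clumping and the 3 highest pairs. Others were named after their values were seen. Alternatives covered the UMI minimum, table, bead weights, distances, tissue rule and thresholds. Gene names and sequences were not used here.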

Additional observations from a re-analysis of the deposited data

Results flagged for a closer look

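On the 24729 barcodes with under 50 UMIs, which the comparisons leave out, the 20 stem cell marker genes took 5.48% of 198495 UMIs (exact binomial interval 5.39% to 5.59%). They drew attention as signal in data outside the comparisons, and the share on beads with at least 50 UMIs was 6.23%.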

How the results depend on the processing

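The share of UMIs taken by the 20 genes was 6.37% in the first run, 6.19% and 6.26% at minimums of 10 and 100 UMIs per bead, 6.29% over tissue, 6.26% in the original table and 4.66% without SMED30029763. The median clumping ratio stayed within 1.05 and 1.103 under all 11 alternatives. The number of genes at 1.5 or more was 2 in the first run, 0 at a minimum of 10 UMIs, 3 for neighbours within 30 units, 2 in the original table, 4 at a threshold of 1.2 and 0 at a threshold of 2. For SMED30029763 the ratio ranged over 1.21 to 1.61, and for SMED30033302 over 0.7504 (minimum of 10 UMIs) to 3.86. With piwi-1, weighting beads by UMIs gave a median of 1.32 and 6 genes at 1.5 or more. That count was 1 in the first run, 5 at a minimum of 10 UMIs and 10 at a threshold of 1.2. It was 6 at a minimum of 200 UMIs, an alternative chosen after seeing the data, as was the expectation within pieces. SMED30029763 kept to 1.74 to 2.07 with piwi-1, and SMED30011041 had 0.934 in the first run and 0.919 in the original table. With mat2a the median same-bead ratio of 1.08 became 0.948 with weights, 0.887 at a minimum of 10 UMIs and 0.995 at 100. Its side of 1 thus depended on the processing. The count at 1.5 or more with mat2a was 2 in the first run, 0 with weights, 3 at a minimum of 10 UMIs and 2 at 100. Member pairs had a median of 1.16 with weights. At tissue limits of 10% and 40% of neighbours, the share of the 20 genes at depth over the edge was 1.14 and 0.837, and off over on tissue it was 0.743 and 0.968. The causes were not tested.

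No paired analysis was possible because the 2 samples are runs of 1 library. Counts limit the 4 genes with under 1000 UMIs most. Whether these beads had a part in choosing the list is not clear.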
